A study of Sus scrofa with 6 samples.

Results

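GRAMD1C was the host gene of 15 of the 4350 circular RNAs (circRNAs) in the table of testis back-splice reads analysed here. The gene was picked from earlier results of these libraries, where its main circRNA was selected on its high mean level, and that main circRNA was chosen by its summed reads, so its size is a description. The libraries came from testes of Landrace boars, 3 aged 30 days (Young_D30) and 3 aged 210 days (Adult_D210), with 1 library per boar. Total RNA was depleted of ribosomal RNA and treated with RNase R, which digests linear RNA, before sequencing as 150 bp read pairs. The 2 ages were compared to ask how circRNAs differ between the immature and the mature testis.

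GRAMD1C belongs to the GRAMD1 (Aster) family, proteins anchored in the membrane of the endoplasmic reticulum. They carry a GRAM domain that senses the plasma membrane and a sterol-binding domain that moves cholesterol from there into the endoplasmic reticulum, and GRAMD1C has also been linked to the start of autophagy. Leydig cells of the testis use cholesterol to make steroid hormones. A circRNA arises by back-splicing, in which the donor site at the end of a downstream exon is joined to the acceptor site at the start of an upstream exon, and reads across that junction count it.

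Each value is a count of back-splice reads or its SRPBM, a normalised signal that relates the count to a library's mapped reads and to the read length of 150 nt. The table held 33091, 18445 and 18618 back-splice reads in Young_D30 replicates 1 to 3 and 23583, 14305 and 12701 in Adult_D210 replicates 1 to 3. The mapped reads were worked out from the ratio of count to SRPBM at a read length of 150 nt. In the same order, they were 37364412, 43625471 and 43424224 against 49179118, 40452590 and 48801540. Young_D30 replicate 1 thus had the most back-splice reads in the table and the fewest mapped reads. The table is held in part and breaks off within its last entry. Its 2552 exonic circRNAs lie on chromosomes 7, 8, 12 and 13 and all have at least 1 read in Young_D30 replicate 1, so exonic circRNAs of other chromosomes and GRAMD1C circRNAs without a read in that library were not analysed here. Ranks and shares of table reads refer to the part held. Medians and percentages over all circRNAs tested can lean towards lower levels in Adult_D210, because of that shared read in a young library. These libraries give levels of circRNA and not of the linear mRNA, and in whole testis fewer cells of a type and less RNA per cell cannot be told apart.

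The 15 GRAMD1C circRNAs were all exonic and assigned to the transcript ENSSSCT00000013038 on the minus strand of chromosome 13. They held 2803 reads over the 6 libraries, and GRAMD1C ranked 6 among the 659 hosts of exonic circRNAs by reads. From their coordinates and listed exon numbers, all 15 could be placed as runs of consecutive exons in 1 chain of 15 exons, counted here in the direction of transcription from the most upstream exon that was back-spliced. These numbers are not those of the whole transcript. The main isoform, circRNA11869, spanned exons 1 to 4 (Sscrofa10.2, chromosome 13, 155644173 to 155664955, 20783 nt with introns). It had 2370 reads, 84.6% of the host's reads. Exon 1 measured 85 nt and exon 4 measured 81 nt, while exons 2 and 3 lay within 780 nt together with their intron, so the circle without introns measured at most 946 nt.

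Among the 14 minor isoforms, 6 shared the acceptor of exon 1 with the main isoform and differed from it in the donor. These were circRNA11870 (exons 1 to 3, 51 reads), circRNA11867 (exons 1 to 5, 11 reads), circRNA11865 (exons 1 to 6, 161 reads), circRNA11863 (exons 1 to 7, 23 reads), circRNA11861 (exons 1 to 8, 22 reads) and circRNA11858 (exons 1 to 15, 15 reads). The acceptor of exon 1 was therefore used with 7 different donors and carried 2653 reads, 94.6% of the total. One isoform, circRNA11868 (exons 2 to 4, 110 reads), shared the donor of exon 4 with the main isoform, and the 2 circRNAs ending there held 88.5% of the reads. The 7 isoforms with neither end of the main isoform held 40 reads together. They included circRNA11857 (exons 5 to 15, 18 reads) and circRNA11859 (exons 7 to 8, 10 reads). The other 5 were circRNA11864 (exons 5 to 6, 6 reads), circRNA11862 (exons 4 to 7, 2 reads), circRNA11866 (exons 2 to 5, 2 reads), circRNA11860 (exons 6 to 8, 1 read) and circRNA11856 (exons 8 to 15, 1 read). Of the 15 isoforms, 10 had at least 10 reads, and 4 had reads in Young_D30 replicate 1 only.

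**Figure D1:**
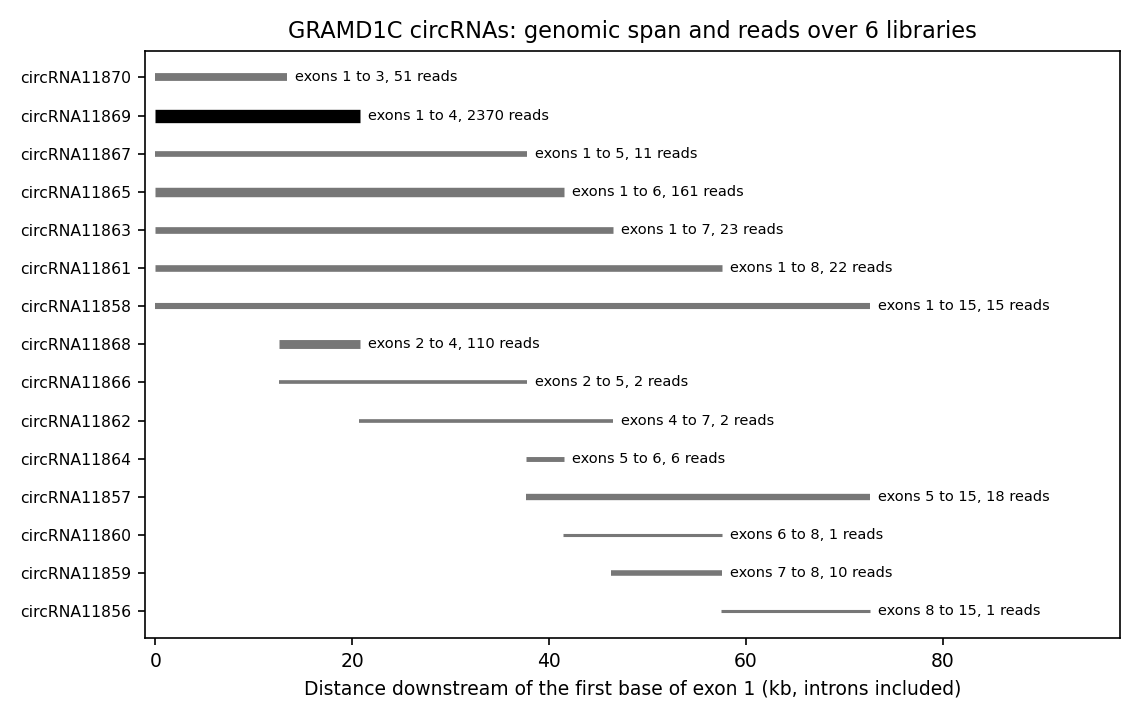
Genomic span of the 15 GRAMD1C circRNAs, as distance in kb downstream of the first base of exon 1 with introns included, with line width rising with the logarithm of the reads over 6 libraries. The main isoform circRNA11869 (black) and 6 minor isoforms begin at the same acceptor, while circRNA11868 ends at the same donor as the main isoform.

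The main isoform was flanked by an intron of 9353 nt upstream of exon 1 and one of 16868 nt downstream of exon 4. Of 2515 exonic circRNAs with both flanking introns listed, 64.2% had a shorter upstream intron and 87.6% a shorter downstream intron, with medians of 5504 and 4348 nt. Within the chain, the introns with a listed length measured 12506 nt after exon 1, 7331 nt after exon 3, 3614 nt after exon 5, 4797 nt after exon 6, 10984 nt after exon 7 and 5322 nt after exon 8. The intron after exon 4 was longer than each of these. Reads of GRAMD1C were also concentrated on few junctions when set beside other hosts. Among the 64 hosts with at least 10 exonic circRNAs, the top isoform held a median of 38.8% of the reads, and GRAMD1C ranked 2 by this share, next to ENSSSCG00000030480 at 84.6%. By the share of the most used acceptor it ranked 1, with a median of 50.3% over these hosts. These ranks are descriptions without a test.

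By mean SRPBM over the 6 libraries, circRNA11869 ranked 3 in the table at 62.0, the value on which it was selected. The circRNAs next above it were circRNA12278 of SLC38A10 (88.6) and circRNA1183 of SETD3 (85.1), and those next below were circRNA10933 of RBM6 (56.2) and circRNA1168 of PAPOLA (45.6). Its rank by reads within a library was 2, 1 and 1 in the Young_D30 libraries and 4, 4 and 5 in the Adult_D210 libraries.

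Between the ages, the main isoform was lower on SRPBM in each adult testis than in any young testis, with a ratio of 2.12, and by a smaller ratio of 1.41 as a share of the back-splice reads in the table. The circle of exons 1 to 3 had reads in 3 of 3 young libraries and in 1 of 3 adult libraries. Every exonic circRNA held has a read in Young_D30 replicate 1, so that detection was given in advance. The part of the GRAMD1C reads that the main isoform took up was about 85% at both ages.

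The main isoform had 623, 441 and 483 reads in the Young_D30 libraries and 383, 262 and 178 reads in the Adult_D210 libraries. Its SRPBM was 111.2, 67.4 and 74.2 in Young_D30 and 51.9, 43.2 and 24.3 in Adult_D210. Of the back-splice reads that the table holds for a library, it made up 1.88%, 2.39% and 2.59% in Young_D30 and 1.62%, 1.83% and 1.40% in Adult_D210. The groups did not overlap on any of these scales, although on the last the nearest libraries, Young_D30 replicate 1 and Adult_D210 replicate 2, lay close together. Young_D30 replicate 1 was the highest on SRPBM and the lowest of its group as a share of table reads. The means were 84.2 ± 23.6 SRPBM (SD, n = 3) in Young_D30 and 39.8 ± 14.1 SRPBM (SD, n = 3) in Adult_D210. As a share of table reads the means were 2.29% ± 0.367 (SD, n = 3) and 1.62% ± 0.215 (SD, n = 3).

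**Figure D2:**
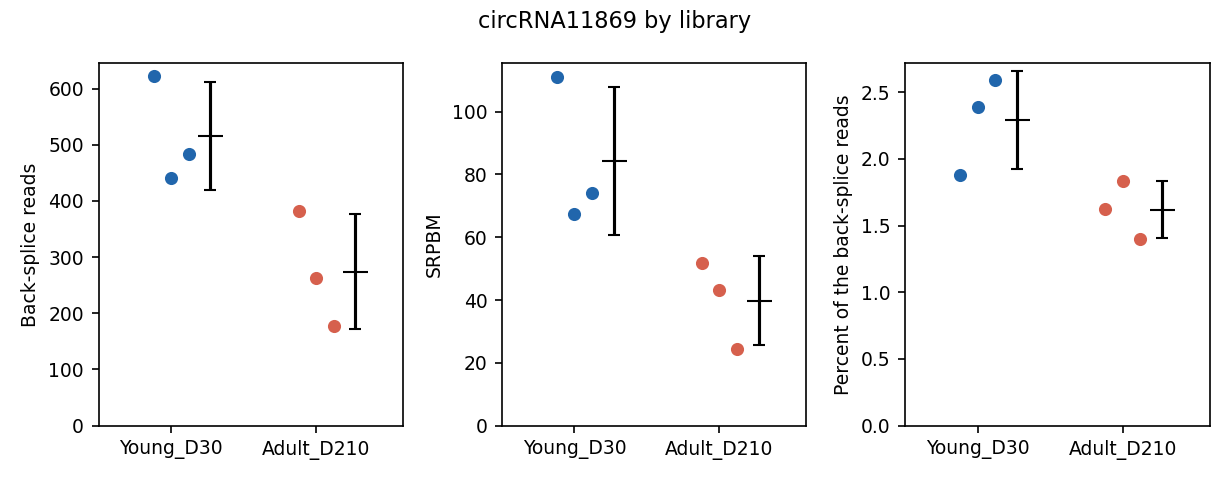
The main isoform circRNA11869 in each library (points) as back-splice reads, SRPBM and percent of the back-splice reads in the table, with the mean and SD of each group (n = 3) in black. Every Young_D30 library lies above every Adult_D210 library on the 3 scales.

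The counts went into a quasi-likelihood test in edgeR over the 1341 circRNAs with at least 10 reads, with TMM scaling of the back-splice totals. A call required a log2 fold change of 1 or more in either direction, with p under 0.05 after Benjamini-Hochberg adjustment. For circRNA11869 the log2 fold change in Adult_D210 against Young_D30 was −0.61 ± 0.21 (SE), and its adjusted p in edgeR was 0.0820, which missed both limits. Without Young_D30 replicate 1 the log2 fold change was −0.59, with an adjusted p of 0.183 in edgeR. Over 16 alternatives the adjusted p ranged from 0.0574 to 0.380 in edgeR, DESeq2 and limma, and 0 of them made a call. The median log2 fold change over all circRNAs tested was −0.42, and the difference of circRNA11869 from it was −0.19. With mapped reads as library size its log2 fold change was −1.08 and the median was −0.90, a difference of −0.18. This reference moved with the low counts and with Young_D30 replicate 1. Every exonic circRNA held has a read in that library, so the median can lean towards lower values in Adult_D210. The median was −0.08 over circRNAs with at least 30 reads (difference −0.44), −0.20 without Young_D30 replicate 1 (−0.39) and −0.05 with that library left out of filter and test (−0.52, an alternative chosen after seeing the data). Without Young_D30 replicate 3 the difference was −0.11 and without Adult_D210 replicate 3 it was −0.04. With no filter on low counts the median was −1.75 and the difference was 1.16, so the position of circRNA11869 relative to the median circRNA depended on these choices.

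Among the minor isoforms, circRNA11870, the circle of exons 1 to 3 that ends 1 exon before the main isoform, differed most between the ages among those with a read at both. It had 15, 23 and 9 reads in Young_D30 and 4, 0 and 0 reads in Adult_D210, which was 2.68, 3.51 and 1.38 SRPBM against 0.542, 0 and 0. All 3 young libraries lay above all 3 adult libraries. Pooled over each group and scaled by mapped reads, 47 reads stood against 4, a ratio of 13.1. Its log2 fold change was −3.19 ± 1.0 (SE), which was −2.77 relative to the median of all tested (−1.40 with no filter on low counts), and its adjusted p of 0.0525 in edgeR's newer quasi-likelihood form fell just short of a call. The newer form was settled on after the older, the default, had been run and had made the call, and the call depended on such settings. It was made in 5 of 16 alternatives, among them edgeR's exact test (adjusted p = 0.0275), limma on SRPBM (adjusted p = 0.0313) and the older form of edgeR's quasi-likelihood fit (adjusted p = 0.0445), and it was not made with DESeq2 (adjusted p = 0.0963). Over all alternatives the adjusted p ranged from 0.0275 to 0.176, with a log2 fold change below 0 in all 16, of which the fit without Adult_D210 replicate 1 had no adult read and gives no size. Without Young_D30 replicate 1 it was −3.32, with an adjusted p of 0.105 in edgeR.

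The longer isoform circRNA11865, exons 1 to 6, had 52, 20 and 10 reads in Young_D30 and 47, 22 and 10 reads in Adult_D210. Its SRPBM was 9.28, 3.06 and 1.54 in Young_D30 and 6.37, 3.63 and 1.37 in Adult_D210, and the groups overlapped. The log2 fold change was 0.27 ± 0.51 (SE), which turned to −0.26 with mapped reads as library size and to −0.15 in limma on SRPBM, and the adjusted p in edgeR was 0.775. The sign also turned without Young_D30 replicate 3 (−0.06) or Adult_D210 replicate 1 (−0.14). circRNA11868, exons 2 to 4, had 37, 11 and 20 reads in Young_D30 and 25, 6 and 11 reads in Adult_D210, again with overlapping groups. Its log2 fold change was −0.38 ± 0.52 (SE), with an adjusted p of 0.692 in edgeR. With Young_D30 replicate 1 left out of both the filter and the test it was 0.0094. Young_D30 replicate 1 and Adult_D210 replicate 1 had the most reads of both isoforms within their groups.

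The remaining tested isoforms rested on few reads. circRNA11857 had 9, 0 and 9 reads in Young_D30 and 0 in each Adult_D210 library, at least 2.28-fold lower in Adult_D210 when 3 reads are allowed in each adult library. circRNA11863 had 7, 6 and 3 reads against 5, 2 and 0, and circRNA11861 had 10, 0 and 0 against 7, 5 and 0. circRNA11858 had 10, 1 and 0 reads against 0, 4 and 0, and circRNA11867 had 3, 0 and 3 against 3, 2 and 0. circRNA11859 had 1, 4 and 2 reads against 1, 1 and 1, a pooled ratio of 2.60 with an exact 95% interval, for counting error only, of 0.593 to 15.6. The adjusted p of these 6 in edgeR's quasi-likelihood test ran from 0.140 for circRNA11857 to 0.986 for circRNA11867. Of the 6, 0 were called by edgeR or DESeq2, and circRNA11857 had an unadjusted p of 0.0227 in edgeR. That circRNA passed the filter through its Young_D30 reads alone, so this p is no support.

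**Figure D3:**
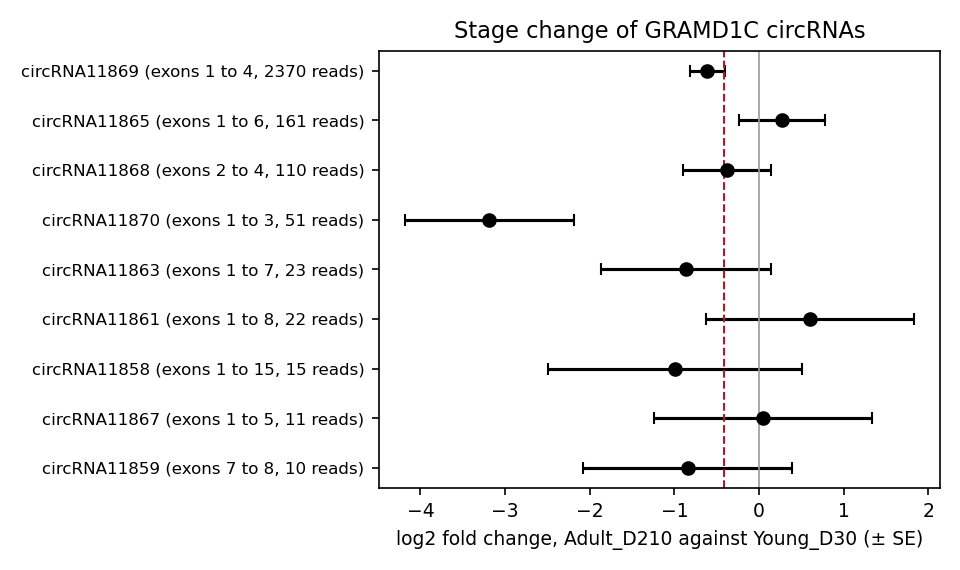
Log2 fold change of Adult_D210 against Young_D30 with its standard error for the 9 tested GRAMD1C circRNAs that had a read in both groups, from edgeR with TMM scaling, ordered by reads. The dashed line marks the median of all 1341 circRNAs tested (−0.42), and circRNA11870 lies at −3.19 while circRNA11865 lies at 0.27, which turned to −0.26 with mapped reads as library size and to −0.15 in limma on SRPBM.

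Of the 10 GRAMD1C circRNAs tested, 0 were called by edgeR, against 8.28% of all circRNAs tested (4.85% called as lower in Adult_D210). At an unadjusted p under 0.05 there were 3 by edgeR, circRNA11857, circRNA11869 and circRNA11870, against 25.1% of all circRNAs tested, while DESeq2 called 0. Of these, circRNA11857 passed the filter through its Young_D30 reads alone, so its p is no support. The exact test, limma and the older quasi-likelihood form called 1 each, circRNA11870. Over all 1341 circRNAs tested they called 115, 87 and 117. Every Young_D30 library lay above every Adult_D210 library in 3 of the 10 on SRPBM (circRNA11859, circRNA11869 and circRNA11870), against 23.5% of all tested, and in 2 on the share of table reads, against 16.4%. For circRNA11859, Young_D30 replicate 1 had 1 read, as did each adult library. Its place above them rests on the mapped reads and not on the count. The median log2 fold change was −0.73 over the 10 and −0.42 over all tested, or −0.73 and −0.40 with circRNAs that lacked reads at one age set to their bound. All of these values come from the same libraries in which the gene was picked, and they are not independent support.

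Summed over its 15 circRNAs, GRAMD1C had 774, 511 and 539 reads in Young_D30 and 475, 304 and 200 in Adult_D210. This was 99.6 ± 33.4 SRPBM (SD, n = 3) in Young_D30 and 47.3 ± 18.7 SRPBM (SD, n = 3) in Adult_D210, and the groups did not overlap. The percentage of all hosts without overlap is not given here, so this is a description. In the edgeR test over the 478 host genes with at least 10 exonic reads, the log2 fold change was −0.36 ± 0.23 (SE) with an adjusted p of 0.251. The host was not called, while 22% of the hosts tested were. The median over hosts was −0.32, and the difference of GRAMD1C from it was −0.04. With mapped reads as library size the host stood at −1.07 and the median at −1.08, so the sum of GRAMD1C circRNAs lay near the median host on both scales. Without Young_D30 replicate 1 the difference from the median host was −0.19, and without Adult_D210 replicate 3, where the host stood at −0.10, it was 0.17.

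The make-up of the GRAMD1C reads does not depend on library scaling. The main isoform took 80.5% (95% Wilson interval 77.6 to 83.1), 86.3% (83.0 to 89.0) and 89.6% (86.7 to 91.9) of them in Young_D30 and 80.6% (76.8 to 83.9), 86.2% (81.9 to 89.6) and 89.0% (83.9 to 92.6) in Adult_D210. The mean share was 85.5% ± 4.62 (SD, n = 3) and 85.3% ± 4.26 (SD, n = 3), a difference of −0.196 percentage points and smaller than the spread within each group (exact permutation test, two-sided p = 0.9, where 3 libraries against 3 allow no p below 0.1). The sign of the difference turned without Young_D30 replicate 2, Young_D30 replicate 3 or Adult_D210 replicate 1, to as much as 2.12. Among the young as among the adult libraries, replicate 1 had the lowest share. Isoforms without a read in Young_D30 replicate 1 were not analysed here, so reads of minor isoforms can be undercounted in the other libraries. The share with the acceptor of exon 1 was 94.5% ± 1.54 (SD, n = 3) in Young_D30 and 95.4% ± 2.0 (SD, n = 3) in Adult_D210, and its groups overlapped. The intervals cover counting error only, as reads were not tagged by molecule and copies of 1 molecule count more than once.

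Among the minor isoforms with this acceptor, circRNA11870 took up less of the GRAMD1C reads in the adult libraries, by a difference that did not pass the test within the host. circRNA11870 made up 1.94%, 4.50% and 1.67% of the GRAMD1C reads in Young_D30 and 0.842%, 0% and 0% in Adult_D210, where 0 reads allow shares of up to 0.987% and 1.5% at 3 reads and of up to 1.25% and 1.88% by the 95% Wilson interval. The observed shares of the groups did not overlap, but the last of these limits lies above the lowest young share. How often isoforms of other hosts separate in this way is not given here. circRNA11865 made up 6.72%, 3.91% and 1.86% in Young_D30 and 9.89%, 7.24% and 5.00% in Adult_D210, with overlap. In edgeR's test of each isoform against the rest of its host, run over 1075 exonic circRNAs of 255 hosts and chosen after seeing the data, circRNA11870 had a relative log2 fold change of −1.87 (adjusted p = 0.599) and circRNA11865 one of 0.60 (adjusted p = 0.961). No GRAMD1C circRNA passed an adjusted p of 0.05 in that test, in which 1 of the 1075 circRNAs (0.093%) did. Before adjustment, the p in this edgeR test was 0.0170 for circRNA11870 and 0.0178 for circRNA11857. The share of all 1075 circRNAs at such unadjusted values is not given here, so no excess can be read from them.

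**Figure D4:**
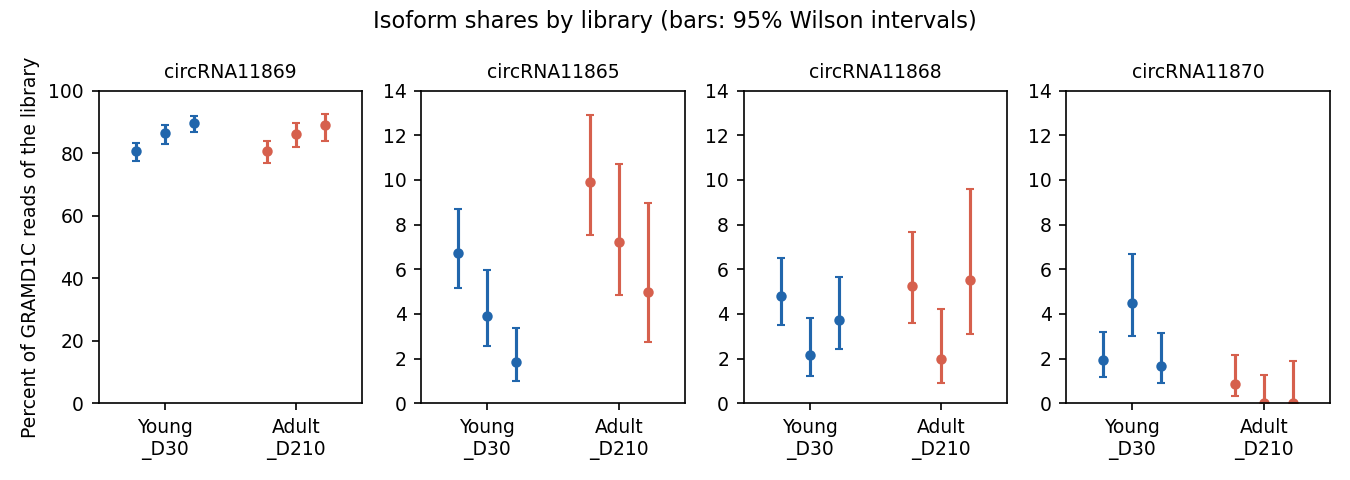
Percent of the GRAMD1C reads of each library that belong to 4 isoforms, with 95% Wilson intervals and a wider axis for circRNA11869. The main isoform lies between 80.5% and 89.6% in all 6 libraries, and the share of circRNA11870 is lower in each Adult_D210 library than in any Young_D30 library, with intervals that overlap.

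Other hosts that handle sterols were looked up in the part of the table held, where a missing host can also lie in the part not held. Of a list of 49 genes of sterol transfer, 5 besides GRAMD1C were hosts, and 6 of their circRNAs were tested. In 2 of these 6 the level fell by the edgeR test, against 4.85% of all circRNAs tested, and both came from OSBPL10, an oxysterol-binding protein relative. As isoforms of 1 host they are not separate cases. The summed reads of OSBPL10 were called too (log2 fold change −3.11), as were those of 22% of the hosts tested. circRNA10708 had 19, 29 and 14 reads in Young_D30 and 2, 0 and 0 in Adult_D210, with a log2 fold change of −4.47 ± 0.99 (SE) and an adjusted p of 0.00943 in edgeR. circRNA10707 had 26, 14 and 12 reads in Young_D30 and 0, 1 and 0 in Adult_D210, with a log2 fold change of −4.94 ± 1.13 (SE) and an adjusted p of 0.0121 in edgeR. Every young library lay above every adult library for both. The pooled ratios of young over adult were 34.5 (exact 95% interval 9.15 to 291) and 57.9 (9.94 to 2329), intervals that cover counting error only and not the spread between boars. Adult reads of circRNA10708 came from Adult_D210 replicate 1 alone, and those of circRNA10707 from Adult_D210 replicate 2 alone. Without that library the adult reads are all 0 and the fold change has no size. The call of circRNA10707 was lost without Young_D30 replicate 1 (adjusted p = 0.0693 in edgeR) and without Adult_D210 replicate 1 (0.0748). With the replicate number as a block the adjusted p in edgeR was 0.107 for circRNA10707 and 0.0837 for circRNA10708, the highest over their alternatives, and the lowest were 0.00152 and 0.000401.

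Another OSBPL10 circRNA, circRNA10706, had 4, 4 and 1 reads in Young_D30 and 4, 3 and 0 in Adult_D210 and was not called. SCARB2, a lysosomal membrane protein, gave circRNA10094 (7, 7 and 6 reads against 0, 5 and 5), circRNA10095 (3, 4 and 6 against 1, 2 and 4) and circRNA10093 (4, 6 and 4 against 0, 0 and 0), of which 0 were called by edgeR, DESeq2 or limma. circRNA10093 had an unadjusted p of 0.0179 in edgeR and was at least 1.71-fold lower against 3 reads in each adult library. It passed the filter through its Young_D30 reads alone, so this p is no support. The list's median log2 fold change was −2.54 as fitted and −0.69 with circRNA10093, which had no adult read, at its bound. GRAMD1B, a relative of GRAMD1C in the Aster family, was present with 3 intronic circRNAs and 5 reads, and STAR, which carries cholesterol into mitochondria, with 1 intronic circRNA and 8 reads.

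Of 59 genes of sterol and steroid metabolism, 6 were hosts and 5 of their circRNAs were tested, with 0 called and 0 at an unadjusted p under 0.05 by edgeR, against 8.28% and 25.1% of all circRNAs tested, and 0 called by DESeq2 or limma. The median log2 fold change was 0.05. SCAP, which escorts the sterol-regulated transcription factors, gave circRNA10839 with 25, 16 and 16 reads in Young_D30 and 9, 1 and 10 in Adult_D210 (log2 fold change −1.16, adjusted p of 0.255 in edgeR). HSD17B11, a steroid dehydrogenase, gave circRNA10418 (14, 5 and 9 reads against 6, 4 and 7) and circRNA10417 (5, 0 and 0 against 3, 3 and 0). CYP17A1, the androgen-making enzyme of Leydig cells, gave the intronic circles ciRNA428 (8, 3 and 0 reads against 8, 6 and 8) and ciRNA427 (3, 0 and 3 against 3, 0 and 2).

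Of 51 autophagy genes, 9 were hosts and 21 of their circRNAs were tested, with 0 called and 4 at an unadjusted p under 0.05 by edgeR, against 8.28% and 25.1% of all circRNAs tested. Of the 21 log2 fold changes, 11 were below 0 and 10 above it. The median was −0.07. Of the 6 with the most reads, DESeq2 called 0. WDFY3, a scaffold of selective autophagy, gave circRNA10481 with 76, 56 and 54 reads in Young_D30 and 12, 23 and 26 in Adult_D210 (log2 fold change −1.19, adjusted p of 0.10 in edgeR). Its groups did not overlap, and limma on SRPBM called it with an adjusted p of 0.0343, the lowest over its alternatives, where the highest was 0.294. ATG2B, a lipid transfer protein of the growing autophagosome, gave circRNA1158 (62, 58 and 41 reads against 47, 28 and 28), circRNA1159 (8, 6 and 11 against 9, 10 and 2) and circRNA1161 (11, 0 and 8 against 9, 5 and 8). ATG7, which activates the conjugation of autophagy proteins, gave circRNA11199 with 9, 0 and 0 reads against 16, 5 and 16, an overlap through Young_D30 replicate 1. Without that library the young reads are all 0, and edgeR's adjusted p was 0.0577 with no call, or 0.0371 with a call when the filter also left it out, an alternative chosen after seeing the data. The highest adjusted p over its alternatives was 0.309. RUBCN, an inhibitor of autophagosome maturation, gave circRNA11744 with 18, 5 and 9 reads against 8, 0 and 6.

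The circRNAs of other hosts whose log2 reads, scaled to library size, were most like those of circRNA11869 over the 6 libraries were circRNA105 of DTNBP1 (Pearson r 0.989), circRNA10170 of ZNF827 (0.979), circRNA10178 of MMAA (0.976), circRNA11080 of SLC25A26 (0.972) and circRNA11238 of IQSEC1 (0.970), out of 1331 compared. Among the 237 with at least 100 reads they were circRNA11080, circRNA10314 of SEC24B (0.962), circRNA1175 of PAPOLA (0.960), circRNA11079 of SLC25A26 (0.941) and circRNA10177 of ZNF827 (0.941). Reads of circRNA1175, the one with the most, were 129, 99 and 93 in Young_D30 and 80, 54 and 44 in Adult_D210. The 6 libraries fall into 2 ages, and each circRNA named here had fewer reads in Adult_D210.

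Markers of cell types were looked up as host genes, since these libraries do not give the level of linear mRNA. Of 21 germ cell genes, 3 were hosts, with 35, 19 and 16 reads in Young_D30 and 91, 29 and 22 in Adult_D210. IQCG had the most, 135, with 7, 6 and 7 in Young_D30 and 67, 27 and 21 in Adult_D210. MOV10L1 had 28, 13 and 9 reads in Young_D30 and fewer in Adult_D210, 24, 1 and 1, and PIWIL1 had 1 read, so the higher adult sum of the list rested on IQCG. Of 7 Leydig cell genes, 2 were hosts, with 12, 6 and 4 reads against 12, 14 and 16, most of them from CYP17A1 (56 reads). Of 12 Sertoli cell genes, GATA4 alone was a host, with 7, 0 and 1 reads against 0 in each adult library. Of 5 genes of peritubular and vessel cells, ACTA2 alone was a host, with 1 read, and 0 of 3 blood genes were. DDX4, SOX9, AMH, CYP11A1 and INSL3 were among the markers with 0 circRNAs in the part of the table held, and their circRNAs can also lie in the part not held. The part of cell composition in the values of GRAMD1C was not tested.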

How the data were processed

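The labels name cutadapt for trimming and Bowtie2 and TopHat2 for alignment to the pig assembly Sscrofa10.2. The authors deposited 2 values per circRNA and library, the raw count of junction reads and SRPBM, a signal scaled by mapped reads and read length. The table breaks off within its last entry. Members and lists were chosen with earlier results of these data known.

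Counts of circRNAs with at least 10 reads were fitted with edgeR 4.0.16 (R 4.3.3; TMM on table totals, robust quasi-likelihood F test, Benjamini-Hochberg over 1341 circRNAs). The older form of that fit, the default of this version, was run first and called circRNA11870. The newer form was taken as the main one after both had been run. The test of isoforms within a host used the older form, because the newer gave 111 negative F statistics there. Alternatives used DESeq2 1.42.0, limma 3.58.1, other scalings and filters, a replicate block and each library left out. The code was tested on simulated data. The share of the main isoform was compared by an exact permutation test (SciPy 1.17.1), and other shares were not tested so. Replicates differed by more than counting noise (chi-square over degrees of freedom 3.87 to 4.97). Named circRNAs were all those of GRAMD1C, the tested circRNAs of each list (at most the 6 with most reads), the 5 most alike among all and among those with at least 100 reads, and the 2 next above and below by mean SRPBM.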

Additional observations from a re-analysis of the deposited data

How the results depend on the processing

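The direction of circRNA11869 was below 0 in all 16 alternatives (−1.11 to −0.47) and 0 called it. circRNA11870 was below 0 in all 16, from −3.73 to −2.69 in the 15 that kept an adult read, while without Adult_D210 replicate 1 its adult reads were all 0 and the fitted value has no size. It was called, as the 1 GRAMD1C circRNA called, with no filter on low counts (−3.15), at least 30 reads (−3.11), edgeR's exact test (−3.29), limma on SRPBM (−3.73) and the older quasi-likelihood form (−3.29), and in the other 11 alternatives 0 were called. The cause was not tested. The older quasi-likelihood form, the default, was run first, and taking the newer one as the main form was a choice made after both results were seen. The fit with Young_D30 replicate 1 left out of filter and test was chosen after seeing the data, as was the test of isoforms within a host, whose value for circRNA11870 ran from −2.08 to −1.48 where an adult read was kept.

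Over the table, 111 circRNAs were called (46 higher, 65 lower in Adult_D210), and 77 with mapped reads as library size (9 higher, 68 lower), 87 with limma (8 higher, 79 lower) and 98 with DESeq2. Leaving out a library, which leaves fewer samples, gave 55, 67 and 42 calls without Young_D30 replicates 1, 2 and 3 and 37, 51 and 78 calls without Adult_D210 replicates 1, 2 and 3. With a replicate block there were 33 calls, and circRNA11869 stood at −0.62 and circRNA11870 at −3.15. The deviations of libraries with the same number from their group means correlated at 0.0512, −0.0145 and −0.0305 across circRNAs. For libraries with different numbers the values ran from −0.0501 to 0.0642. Such correlations cannot exclude pairing, and a batch shared by number was not tested.

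The sign turned in 39 settings of 10 results, none of them called. With DESeq2, circRNA11891 was at 0.11. With no TMM, circRNA10706 was at 0.081 and circRNA11891 at 0.14. With mapped reads, circRNA11865 was at −0.26, ciRNA427 at −0.40 and circRNA1159 at −0.39. In limma they were at −0.15, −0.30 and −0.56. circRNA11891 was at 0.0093 with no filter, 0.090 with at least 30 reads, 0.031 in the exact test and 0.038 in the older form. With Young_D30 replicate 1 left out of filter and test, circRNA11868 was at 0.0094, circRNA10706 at 0.083, circRNA1159 at −0.077 and circRNA11891 at 0.15. Fits that each left out 1 library gave −0.14 to 0.92 for circRNA11865, −1.13 to 0.14 for circRNA10094, −1.27 to 0.017 for circRNA10095, −0.41 to 0.42 for circRNA10706, −0.43 to 0.54 for ciRNA427, −0.40 to 0.40 for circRNA1159, −0.65 to 0.54 for circRNA11884 and −0.48 to 0.28 for circRNA11891. The difference in the share of the main isoform ran from −2.68 to 2.12 percentage points. The cause was not tested.

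The host sum stayed below 0 in every alternative run, from −1.07 with mapped reads to −0.10 without Adult_D210 replicate 3. The main isoform ranked 4 in the table by share of table reads or by the median over libraries. A count of 0 in an adult library allows up to 3 reads, and GRAMD1C circRNAs without a read in Young_D30 replicate 1 were not analysed here.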

Other observations

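On chromosome 13, 12 other hosts had a circRNA within 1000000 bases of GRAMD1C, and 13 of their circRNAs were tested, with 0 called and 3 at an unadjusted p under 0.05 by edgeR, against 8.28% and 25.1% of all circRNAs tested. Their median log2 fold change was −0.17, and of the 6 with the most reads DESeq2 called 0. NAA50, an N-terminal acetyltransferase, gave circRNA11879 with 93, 112 and 76 reads in Young_D30 and 21, 27 and 43 in Adult_D210 (log2 fold change −1.24, adjusted p of 0.0666 in edgeR). Every young library lay above every adult library. It was called in 5 of 16 alternatives, among them mapped reads as library size (adjusted p = 0.0393 in edgeR) and without Adult_D210 replicate 3 (0.0319), and its adjusted p ranged from 0.0198 to 0.266 over all of them. SPICE1, a centriole protein, gave circRNA11882 with 23, 19 and 18 reads against 57, 23 and 13, circRNA11885 with 19, 16 and 27 against 17, 13 and 0, and circRNA11884 with 8, 2 and 14 against 5, 7 and 4. GTPBP8 gave circRNA11891 with 10, 3 and 9 reads against 5, 4 and 8, and ENSSSCG00000011913 gave circRNA11854 with 3, 1 and 0 against 12, 7 and 2.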
